A study of Mus musculus with 12 samples.

Results

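Mouse B cells that had divided at least 8 times and carried CD138 (Div8pos) were compared with B cells that had divided 5 times and were taken from the same hosts (Div5). CD138 is the product of Sdc1 and is the surface protein by which plasma cells are sorted. The comparison used 4 of the 12 libraries of the series, paired by host number. The 2 libraries of cells that had also divided at least 8 times but lacked CD138 (Div8neg) were set beside it, which makes 6 libraries. For each gene the question was how much of the change from Div5 to Div8pos was already present in Div8neg, and which genes went opposite ways in these CD138 branches. The groups differed in the number of divisions and in CD138, so Div8pos against Div5 combines further division with the appearance of CD138.

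All groups shared 1 treatment. B220+ CD43- splenic B cells were labelled with the division dye CFSE or CTV, moved into uMT hosts, which lack B cells of their own, and left overnight before lipopolysaccharide (LPS) was given. Spleens were taken at day 3 after LPS, and 40000 cells were sorted per library. The labels give female mice of 8 weeks and the strain B6.SJL-Ptprca Pepcb/BoyJ, whereas the design text names C57/BL6J as the donors, and no genotype other than uMT is given. Each group held n = 2 libraries, 1 from host 196 and 1 from host 197, so that p-values speak for these 2 hosts. Whether donor cells were pooled before transfer is not given in the sources used here.

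A B cell that becomes a plasma cell exchanges one set of regulators for another. Blimp-1 (Prdm1) and IRF4 bring in the plasma cell genes and, with XBP1, the machinery of secretion. Meanwhile PAX5, which maintains B cell identity, and the repressors BACH2 and BCL6 are shut off. LPS, a ligand of Toll-like receptor 4, drives this step in mouse B cells through rounds of division, and cells with and without CD138 are found among those that have divided most.

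The 6 libraries held 11799172 to 14165452 counts over genes. Spike-in RNA, added to a fixed number of cells, gave a total of 163000 ± 15600 mRNAs per cell in Div8pos (SD, n = 2), 100300 ± 4760 in Div8neg and 71520 ± 4990 in Div5. The ratio of Div8pos to Div5 was 2.32 in host 196 and 2.24 in host 197, and that of Div8neg to Div5 was 1.29 in host 196 and 1.52 in host 197. With 2 libraries a group, an exact two-sided permutation test cannot give less than p = 0.333 for such totals. Levels below are counts per 1000000 counts over genes (CPM, scaled by TMM factors), and a log2 fold change is of these levels, hence relative to the average gene. Scaling to the spike-ins instead moved the median log2 change of all 12026 genes tested to 1.05 for Div8pos against Div5 and to 0.49 for Div8neg against Div5. "Higher", "lower", "rose" and "fell" are used of genes at an adjusted p under 0.05 (edgeR's quasi-likelihood test, Benjamini-Hochberg). In bulk RNA, fewer cells that express a gene and less RNA of it per cell cannot be told apart.

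The sort gene followed the labels in each library. Sdc1 was at 331 and 309.6 CPM in the Div8pos libraries of hosts 196 and 197, at 3.56 and 5.89 CPM in Div8neg and at 2.68 and 4.73 CPM in Div5. As Sdc1 encodes the protein used for sorting, its difference is a check and not a result.

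Between Div8pos and Div5, 9778 of the 12026 genes tested differed (81.3%), 4880 higher (40.6%) and 4898 lower (40.7%). Of these genes, 9761 changed in the same direction in both hosts. A change of at least 2-fold was found in 4720 genes (39.2%), 1973 higher (16.4%) and 2747 lower (22.8%). In Div8neg against the same Div5 libraries 6893 genes differed (57.3%), 3446 higher and 3447 lower (28.7% each), and 948 differed by at least 2-fold (7.88%), 411 higher (3.42%) and 537 lower (4.47%). The branches themselves differed at 8920 genes in Div8pos against Div8neg (74.2%), a contrast in which Div5 cancels. With spike-in scaling, 7910 genes were higher and 1663 lower in Div8pos than in Div5, so the even split holds for read shares only.

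The share of a change present in Div8neg was taken as the log2 change of Div8neg against Div5 divided by that of Div8pos against Div5. A share of 0% places Div8neg at the level of Div5, a share of 100% places it at the level of Div8pos, and a negative share means the opposite direction. As both changes use the same Div5 libraries, the share is a description and carries no test. Over the 4720 genes with a 2-fold change the median share was 27.5% (quartiles 13.3% and 42.3%), with medians of 27.7% in host 196 and 27.3% in host 197. A gene's 2 host values lay a median of 7.15 percentage points apart. Genes that rose had a median share of 32.9%, and genes that fell had one of 24.0%. Spike-in scaling moved these medians to 41.2% and 7.83%, and shares of the difference in mean CPM, in place of log2 CPM, were 18.8% for genes that rose and 41.3% for genes that fell. The order of the 2 directions therefore depends on the scale.

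Most genes were partway. Of the 4720 genes, 2404 had a share of 25 to 75%, 1623 had one of 0 to 25%, 517 had a negative one and 176 had one of 75% or more. In Div8neg, 3200 of the 4720 had changed the same way (67.8%), 161 had changed the opposite way and 1359 did not pass the test. Over all genes tested, 48.6% changed the same way in both branches. The level in Div8pos differed from that in Div8neg for 4361 of the 4720 (92.4%, where 74.2% of all genes differed). As the 4720 were chosen for a change between these Div8pos and Div5 libraries, the higher percentages are a description and no test.

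**Figure D1:**
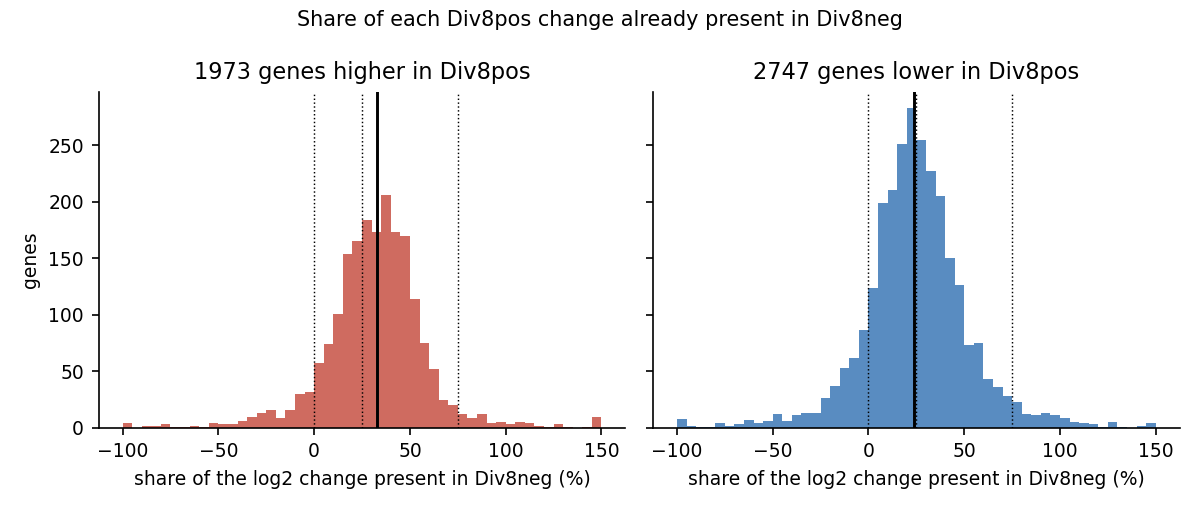
Histograms of the share of the log2 change (Div8pos against Div5) that was present in Div8neg against Div5, in percent, for the 1973 genes higher in Div8pos (left) and the 2747 lower (right). The thick line is the median (32.9% and 24.0%), dotted lines mark 0, 25 and 75%, and shares beyond the axis are drawn in the end bins; in both directions the bulk of the genes lies between 0 and 75%.

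Genes were ranked within a share class at 10 CPM or more in the higher group, with the shares of both hosts in the class. Among those with little of the change in Div8neg, Rgcc (a regulator of the cell cycle and of the complement response) and Ak7 (an adenylate kinase) rose most. Next came Cd28 (a costimulatory receptor that also sustains plasma cells), the sort gene itself and Epcam (a cell adhesion protein). Rgcc was at 89.3 and 79.0 CPM in Div8pos, at 1.95 and 2.14 CPM in Div8neg and at 0.745 and 0.801 CPM in Div5, a log2 change of 6.75 (SE 0.20, adjusted p = 2.15e-17) of which 20.6% was present in Div8neg. Cd28 was at 31.9 and 42.4 CPM in Div8pos, at 0.488 and 1.38 CPM in Div8neg and at 0.223 and 0.561 CPM in Div5, with log2 6.55 (SE 0.25, adjusted p = 1.95e-15). For both genes each Div8pos library stood far above all 4 others. Among genes that fell, Sema5a (a semaphorin) and Klrb1f (a C-type lectin receptor) had 0 counts in both Div8pos libraries. Sema5a was at 9.14 and 6.58 CPM in Div8neg and at 18.5 and 14.6 CPM in Div5, so that it was at least 132-fold lower in Div8pos than in Div5, with a floor of 3 counts over the group's libraries. For Klrb1f the bound was at least 79.5-fold lower. Nlrc3 (an inhibitory NLR protein), Gapt (an adaptor that binds GRB2) and Ms4a4c (a relative of CD20) also fell to less than 1 CPM in both Div8pos libraries, with shares of 20.3%, 8.51% and 5.56%.

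A smaller group had made most of the change in Div8neg. Slpi, a secreted inhibitor of serine proteases, was at 145 and 127 CPM in Div8pos, at 97.3 and 78.2 CPM in Div8neg and at 4.02 and 5.45 CPM in Div5. Its log2 change was 4.85 in Div8pos (SE 0.20, adjusted p = 6.25e-15) and 4.22 in Div8neg (SE 0.21, adjusted p = 3.97e-12), a share of 87.0%. Both branches were above Div5 in each library without overlap. Cdkn2a, which encodes inhibitors of the cell cycle, was at 15.7 and 13.4 CPM in Div8pos, at 20.4 and 16.5 CPM in Div8neg and at 1.56 and 2.40 CPM in Div5. Its share was 112%, so Div8neg was the higher branch in read shares (log2 -0.35 for Div8pos against Div8neg, adjusted p = 0.0436). This gap was smaller than the median log2 change of all genes between these branches with spike-in scaling (0.60). The order of the branches for Cdkn2a therefore holds for read shares only. Myadm, Plxna1 (a semaphorin receptor) and Coro2b (a coronin that binds actin) rose with shares of 83.4%, 80.7% and 97.2%.

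Among genes that fell, Aire, the transcription regulator known for self-antigen display in the thymus, was at 4.16 and 3.44 CPM in Div8pos, at 2.23 and 2.60 CPM in Div8neg and at 27.3 and 19.6 CPM in Div5. Its log2 change was -2.63 in Div8pos (SE 0.17, adjusted p = 1.39e-11) and -3.29 in Div8neg (SE 0.18, adjusted p = 1.82e-11), a share of 125%. Amica1 (a junctional adhesion molecule), Lmntd2, Utrn (utrophin, a link between actin and the membrane) and Slc2a6 (a sugar transporter) fell with shares of 91.4%, 84.2%, 88.9% and 98.0%. For these 4 the branches did not pass the test against each other (adjusted p = 0.423, 0.225, 0.236 and 0.86), which does not show that they are equal.

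**Figure D2:**
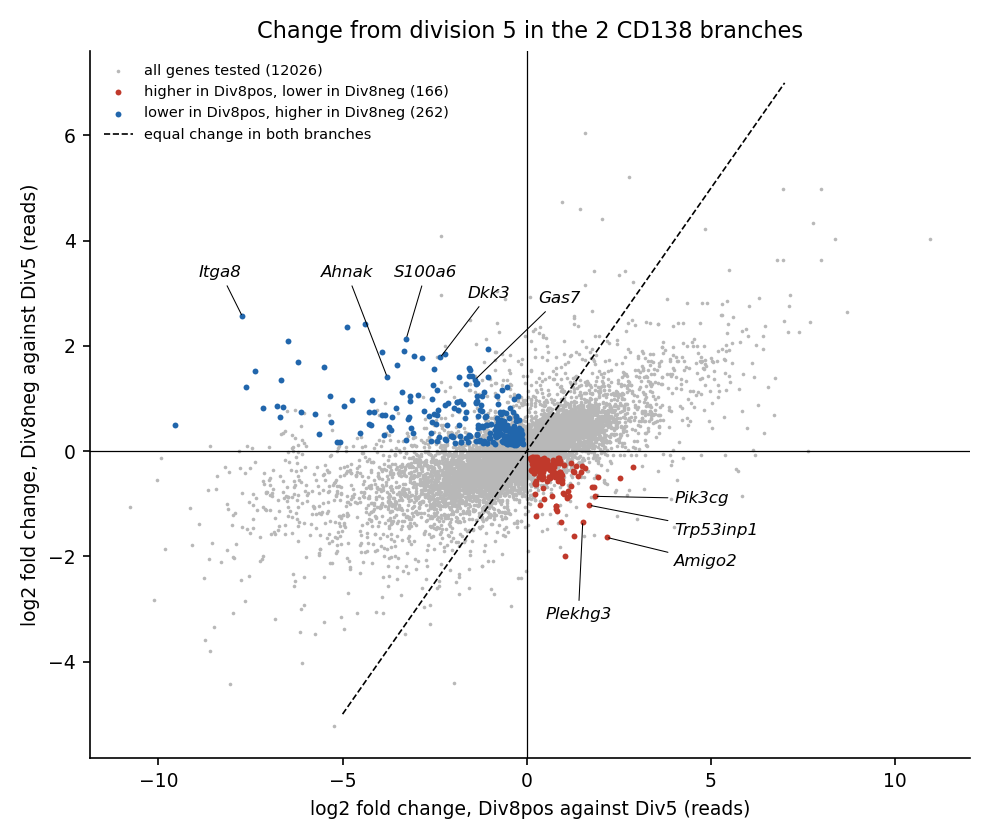
Each point is 1 of the 12026 genes tested, with the log2 fold change of Div8pos against Div5 on the horizontal axis and that of Div8neg against Div5 on the vertical axis, both of TMM-scaled reads. Coloured genes passed the test in both contrasts with opposite signs (166 and 262); fitted values of genes at 0 counts, such as Itga8, are no bound. As both axes use the same Div5 libraries, the slope of the cloud is not read as a relation.

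Opposite changes in the 2 branches were found in 428 genes (3.56% of genes tested), against 5839 that changed the same way in both (48.6%). Of the 428, 166 were higher in Div8pos and lower in Div8neg (1.38%), with median log2 changes of 0.46 and -0.30. The other 262 were lower in Div8pos and higher in Div8neg (2.18%), with medians of -1.07 and 0.43. A change of at least 2-fold in both branches was found for 5 of the 166 and for 39 of the 262. With spike-in scaling 4 of the 5, without Myo1a, and 21 of the 39 kept their opposite calls, with DESeq2 3 and 24 did, and in each of 18 settings 3 and 14 did. The 5 were Amigo2, Plekhg3, Trp53inp1, Ankrd6 and Myo1a; Ankrd6 and Myo1a fell outside the rule for named genes and are named after their values were seen. All opposite genes together numbered 250 with the DESeq2 test, 233 without the Div5 library of host 196, 250 without that of host 197 and 282 without the Div8neg library of host 196. With spike-in scaling it was 168, of which 92 were among the 428, and only 18 of the 168 were higher in Div8pos and lower in Div8neg.

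Amigo2, a cell adhesion protein with leucine-rich repeats, had the clearest change upward in Div8pos. It was at 73.6 and 62.2 CPM in Div8pos, at 5.58 and 4.05 CPM in Div8neg and at 15.7 and 14.5 CPM in Div5. Its log2 change was 2.17 in Div8pos (SE 0.10, adjusted p = 6.23e-14) and -1.64 in Div8neg (SE 0.17, adjusted p = 9.37e-08). The 3 groups did not overlap, and with spike-in scaling the changes were 3.25 and -1.16. Plekhg3, an exchange factor for small GTPases, was at 80.2 and 71.4 CPM in Div8pos, at 11.5 and 9.33 CPM in Div8neg and at 28.9 and 24.0 CPM in Div5 (log2 1.52 and -1.34). Trp53inp1, a target of p53 with a role in autophagy, was at 207 and 241 CPM in Div8pos, at 33.9 and 33.6 CPM in Div8neg and at 68.2 and 69.6 CPM in Div5 (log2 1.70 and -1.03). For these genes each Div8pos library was the highest and each Div8neg library the lowest. Pik3cg, a catalytic subunit of phosphoinositide 3-kinase, was at 170.1 and 189.6 CPM in Div8pos, at 25.8 and 28.9 CPM in Div8neg and at 54.4 and 45.1 CPM in Div5 (log2 1.86 and -0.86). Arhgap6, a GTPase-activating protein, and Rnf122, a ubiquitin ligase, changed less, by 1.15 and 0.83 in Div8pos and by -0.85 and -1.13 in Div8neg. With spike-in scaling the Div8neg decrease of Pik3cg (-0.37, adjusted p = 0.159) and of Arhgap6 (-0.36, adjusted p = 0.278) no longer passed the test.

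In the other direction, Itga8, the alpha-8 chain of an integrin, had 0 counts in both Div8pos libraries, was at 10.6 and 13.3 CPM in Div8neg and at 2.01 and 2.00 CPM in Div5. It was at least 16-fold lower in Div8pos than in Div5 by the floor of 3 counts, and higher by log2 2.56 in Div8neg (SE 0.22, adjusted p = 1.12e-08). S100a6, a calcium-binding protein, was at 0.720 and 0.440 CPM in Div8pos, at 25.1 and 25.6 CPM in Div8neg and at 4.25 and 7.45 CPM in Div5 (log2 -3.27 and 2.14). Ahnak, a very large scaffold protein, was at 4.16 and 6.25 CPM in Div8pos, at 174 and 206 CPM in Div8neg and at 61.9 and 81.5 CPM in Div5 (log2 -3.79 and 1.41). For the 3 genes Div8neg was highest and Div8pos lowest, with no overlap. Dkk3, a secreted protein of the Dickkopf family, changed by -2.35 in Div8pos and 1.78 in Div8neg. Mettl7a1, a putative methyltransferase, changed by -1.58 and 1.43, and Gas7, an actin-binding protein, by -1.40 and 1.36. With spike-in scaling the decrease in Div8pos did not pass the test for Mettl7a1 (-0.49, adjusted p = 0.144) or Gas7 (-0.35, adjusted p = 0.138), while the increase in Div8neg did for both.

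**Figure D3:**
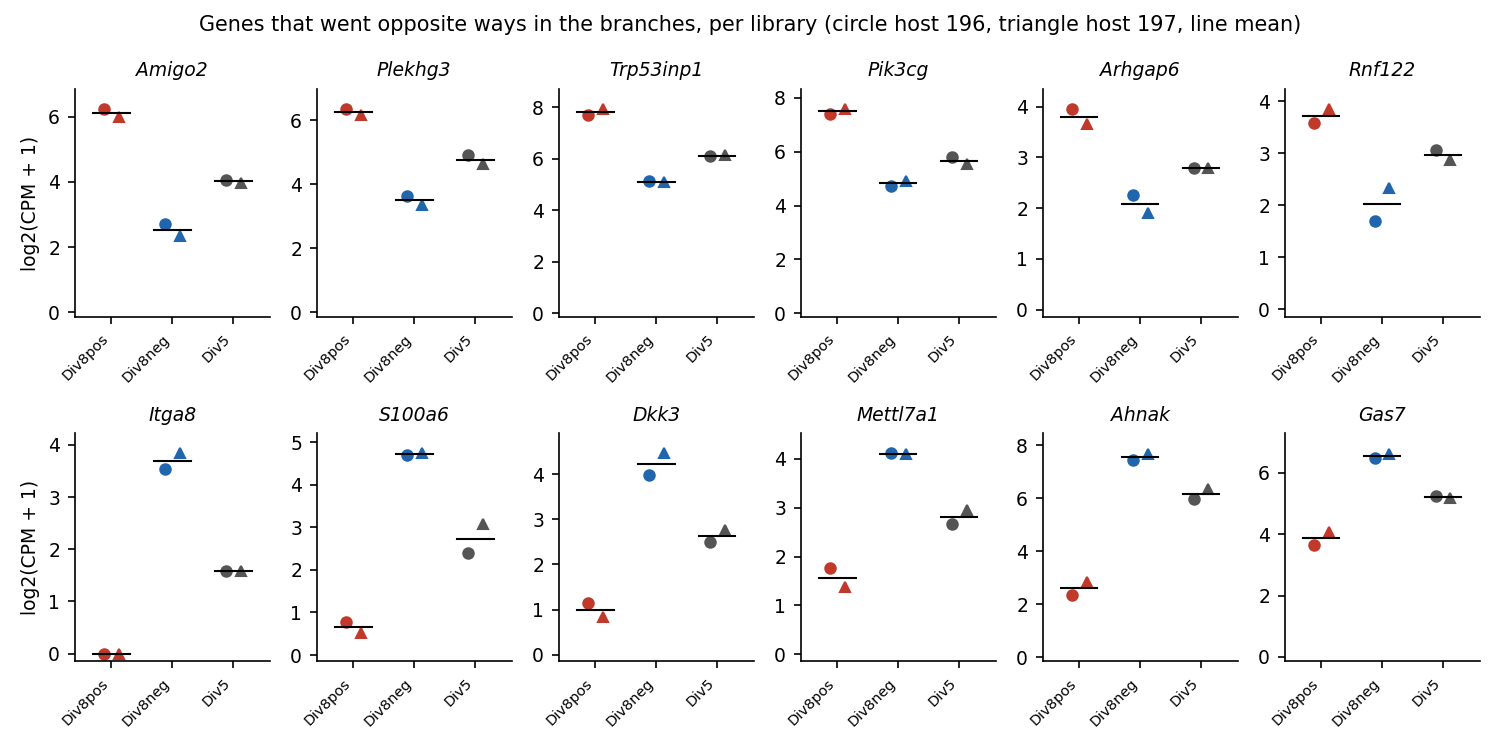
Level of 12 genes that went opposite ways, as log2(CPM + 1) per library, for Div8pos, Div8neg and Div5 from left to right (circle host 196, triangle host 197, line the mean of 2). In the top row Div8pos is above and Div8neg below Div5 in both hosts, and in the bottom row the order is turned round, with Itga8 at 0 in Div8pos.

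Div0 and Div3, cells at 0 and 3 divisions, are in neither contrast that defines the opposite genes, but they entered the filter and the shared estimate of spread, and they were compared after the results were known. Leaving out 1 Div0 or Div3 library lost 14 to 23 of the 428 genes. Between Div3 and Div0, 17.3% of all genes tested were higher and 15.7% lower. Of the 262 genes lower in Div8pos and higher in Div8neg, 90 were already higher in Div3 than in Div0 (34.4%) and 31 lower (11.8%). Of the 166 of the reverse pattern, 16 were higher (9.64%) and 52 lower (31.3%), or 32 lower without the Div0 library of host 196. Of the 1071 genes that fell in Div8pos with a share of 0 to 25%, 401 were higher in Div3 (37.4%) and 146 lower (13.6%). With spike-in scaling 71.2% of all genes were higher in Div3, and 72.5% of the 262 were. Of the 166, 66.3% were then higher and 0 lower by edgeR's quasi-likelihood test, also 0 at an unadjusted p under 0.05, while the DESeq2 test, on its own size factors, gave 40 lower.

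Plasma cell regulators mostly rose. Of 15, 10 were higher and 5 lower in Div8pos than in Div5 (all genes 40.6% and 40.7%), with a median log2 change of 1.32, against 0.68 in Div8neg. Prdm1, which encodes Blimp-1, was at 329 and 321 CPM in Div8pos, at 50.9 and 65.9 CPM in Div8neg and at 17.6 and 26.1 CPM in Div5. Its log2 change was 3.92 (SE 0.11, adjusted p = 1.54e-17), of which 36.4% was present in Div8neg (36.2% and 36.9% in the 2 hosts). Irf4 was at 1216 and 1167 CPM in Div8pos, at 227 and 253 CPM in Div8neg and at 146 and 164 CPM in Div5, with log2 2.95 (SE 0.06, adjusted p = 3.60e-20) and a share of 21.6%. The steps were uneven, since for both genes the gap between Div8pos and Div8neg was wider than that between Div8neg and Div5. Xbp1, the transcription factor of the secretory programme, had log2 3.38 and a share of 22.0%, and Ell2, an elongation factor that favours the secreted form of immunoglobulin mRNA, had log2 3.58 and a share of 19.3%. Bhlha15, also known as Mist1 and a regulator of secretory cells, rose by 5.41 with a share of 37.2%, Creb3l2, a transcription factor released from the ER membrane, by 4.77 with 29.1%, and Fam46c, a poly(A) polymerase, by 4.69 with 29.2%.

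The 5 listed regulators that fell in Div8pos were Aff3, Bhlhe40, Zbtb32, Bhlhe41 and Zbtb20. Aff3, at 5.20 and 5.20 CPM in Div8pos, at 174 and 177 CPM in Div8neg and at 238 and 242 CPM in Div5, changed by log2 -5.53 with 8.17% of the change in Div8neg. Zbtb32, a zinc finger repressor, went opposite ways: 20.3 and 20.4 CPM in Div8pos, 475 and 511 CPM in Div8neg and 275 and 347 CPM in Div5 (log2 -3.92 and 0.68). Bhlhe41 did so as well (-0.81 and 1.04), but its change in Div8pos was 0.28 with spike-in scaling. Zbtb32 is known to restrain the response of memory B cells, and Bhlhe41 to act in B-1a and memory B cells.

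Of 18 surface and secreted plasma cell products tested, without the sort gene Sdc1, 17 were higher in Div8pos and 1 lower (40.6% and 40.7% of all genes), with a median log2 change of 2.97, against 0.69 in Div8neg and a median share of 24.6%. Igj, the joining chain of antibody polymers, was at 1536 and 1769 CPM in Div8pos, at 119 and 164 CPM in Div8neg and at 36.4 and 63.5 CPM in Div5. Its log2 change was 5.08 (SE 0.12, adjusted p = 2.79e-19), with a share of 29.8%, and the 3 groups did not overlap. Tnfrsf17, the survival receptor BCMA, was at 11.4 and 8.54 CPM in Div8pos, at 0.349 and 0.153 CPM in Div8neg, and had 1 count over both Div5 libraries, a ratio of 260 with a 95% counting interval of 46.1 to 10300. Fkbp11, a peptidyl-prolyl isomerase of the endoplasmic reticulum (ER), rose by log2 5.40 with a share of 21.5%. The 2 integrin chains on the list parted: Itga4 was at 515 and 617 CPM in Div8pos, at 152 and 159 CPM in Div8neg and at 212 and 195 CPM in Div5 (log2 1.48 and -0.39), while Itgb1 was at 166 and 174 CPM in Div8pos, at 538 and 557 CPM in Div8neg and at 371 and 417 CPM in Div5 (log2 -1.21 and 0.48). With spike-in scaling Itga4 in Div8neg turned to 0.10. On that scale 18 of the 19 listed genes, Sdc1 included, were higher in Div8pos and 0 lower by edgeR's test. The Div8pos decrease of Itgb1 thus held for read shares only.

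**Figure D4:**
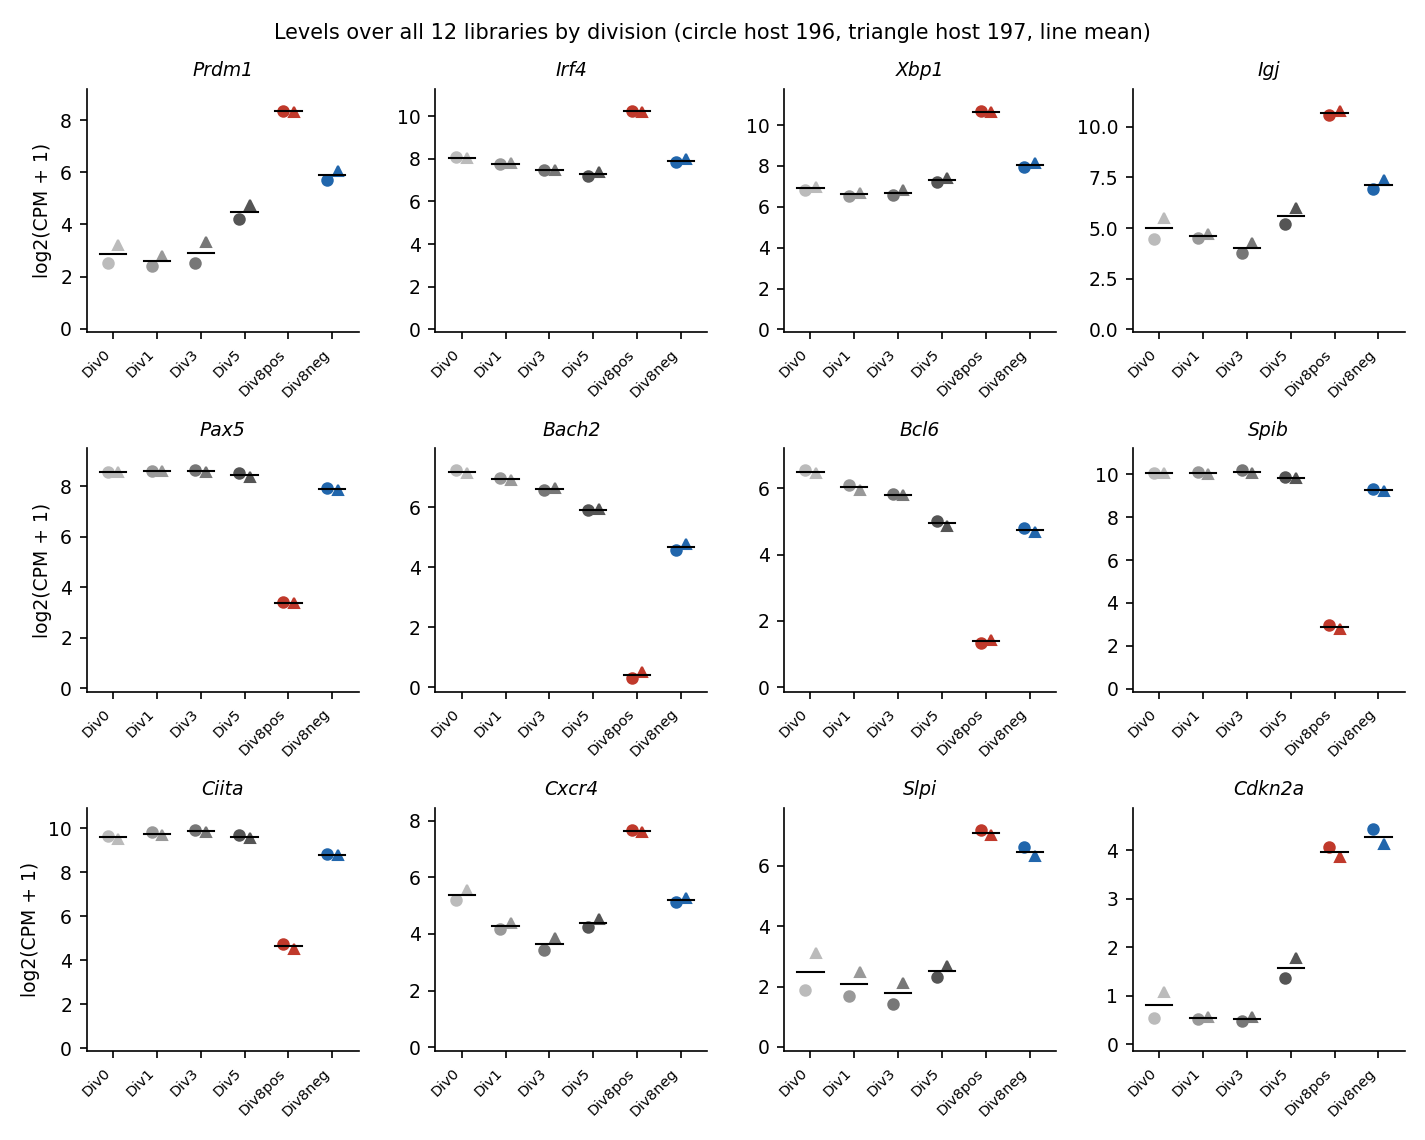
Level of 12 genes as log2(CPM + 1) in all 12 libraries, from Div0 to Div5 and then in Div8pos and Div8neg (circle host 196, triangle host 197, line the mean of 2). Prdm1, Xbp1 and Igj are highest in Div8pos and next highest in Div8neg; Cxcr4 is highest in Div8pos; Pax5, Bach2, Bcl6, Spib and Ciita are lowest in Div8pos; Slpi and Cdkn2a are high in both branches.

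The secretory machinery rose almost throughout, on both scales. Of 38 genes of the unfolded protein response (UPR) tested, 36 were higher in Div8pos and 1 lower (40.6% and 40.7% of all genes). Their median log2 change was 1.95, against 0.56 in Div8neg, with a median share of 29.6%. Of 35 genes of ER translocation and glycan transfer, 33 were higher and 1 lower (median 1.95, against 0.42 in Div8neg), with shares from 11.0% to 30.8% among the 31 with a 2-fold change. Of 36 genes of COPII and COPI vesicle traffic, 34 were higher and 0 lower by edgeR's test (median 1.49, against 0.35), and 0 were lower with spike-in scaling too. Creld2, an ER chaperone, was at 1049 and 1182 CPM in Div8pos, at 160 and 237 CPM in Div8neg and at 83.3 and 109 CPM in Div5 (log2 3.55, SE 0.07, adjusted p = 6.53e-20, share 29.1%). Sec24d, a cargo receptor of the COPII coat, was at 409 and 413 CPM in Div8pos, at 26.2 and 45.2 CPM in Div8neg and at 7.15 and 11.5 CPM in Div5 (log2 5.49, SE 0.14, adjusted p = 1.07e-18, share 35.2%). In both genes the Div8neg library of host 197 was above that of host 196, and both lay between Div5 and Div8pos. Hspa5, which encodes the chaperone BiP, rose by log2 1.83 with a share of 31.3%, Ern1, the sensor IRE1, by 3.37 with 18.2%, Srprb, a subunit of the signal recognition particle receptor, by 3.43 with 20.8%, and Lman1, a cargo receptor for glycoproteins, by 3.47 with 28.9%. Ppp1r15a, a phosphatase subunit that restores translation, and Stt3b, a catalytic subunit of the oligosaccharyltransferase, were the 2 exceptions, at -0.30 and -0.29, and both turned positive with spike-in scaling (0.80 and 0.77), whereas Stt3a, the other catalytic subunit, rose by 2.68.

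The promoters of the genes on these lists were searched on both strands for motifs of the ER stress response. The window held 250 bases before and 50 after the gene start (RefSeq, GRCm38.p6). As the lists were set by gene role, the motif counts describe the lists and not the changes. The ER stress element, CCAAT and then CCACG after 9 bases of any kind, stood in 10 of the 35 UPR genes with a promoter in the table (28.6%) and in 37 of 27025 promoters in all (0.137%). The core of the UPR element, TGACGTGG, stood in 6 of 31 vesicle traffic genes (19.4%) and in 193 of all promoters (0.714%). It stood in 1 of the 35 UPR genes (2.86%), and the ER stress element in 0 of the 31 vesicle traffic genes. No occurrence of either was found in 25 genes of translocation and glycan transfer. Among the 9601 tested genes with a promoter, 0.187% held the ER stress element and 1.03% the core of the UPR element. The windows of 4 genes described here are shown, with the motif in capitals, which for Creld2 and Kdelr3 lies on the strand not printed.
Hspa5 (chr2:34771840-34772139, + strand): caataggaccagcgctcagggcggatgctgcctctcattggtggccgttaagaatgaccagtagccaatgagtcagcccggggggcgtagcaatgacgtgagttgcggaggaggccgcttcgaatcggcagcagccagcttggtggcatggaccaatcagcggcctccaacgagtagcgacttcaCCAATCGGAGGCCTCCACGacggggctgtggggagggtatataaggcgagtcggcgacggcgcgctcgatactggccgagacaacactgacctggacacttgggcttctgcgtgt
Creld2 (chr15:88819396-88819695, + strand): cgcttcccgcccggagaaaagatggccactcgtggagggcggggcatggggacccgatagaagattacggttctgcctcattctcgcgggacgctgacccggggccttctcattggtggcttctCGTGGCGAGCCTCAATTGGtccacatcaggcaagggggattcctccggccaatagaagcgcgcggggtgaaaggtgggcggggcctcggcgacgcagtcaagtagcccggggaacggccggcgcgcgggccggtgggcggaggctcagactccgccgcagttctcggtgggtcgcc
Sec24d (chr3:123267246-123267545, + strand): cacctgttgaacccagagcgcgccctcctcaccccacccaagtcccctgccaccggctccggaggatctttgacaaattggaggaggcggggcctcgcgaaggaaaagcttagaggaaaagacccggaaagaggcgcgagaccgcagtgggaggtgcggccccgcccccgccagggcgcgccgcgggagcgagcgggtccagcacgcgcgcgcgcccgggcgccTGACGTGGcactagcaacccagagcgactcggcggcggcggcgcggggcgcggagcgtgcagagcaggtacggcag
Kdelr3 (chr15:79516158-79516457, + strand): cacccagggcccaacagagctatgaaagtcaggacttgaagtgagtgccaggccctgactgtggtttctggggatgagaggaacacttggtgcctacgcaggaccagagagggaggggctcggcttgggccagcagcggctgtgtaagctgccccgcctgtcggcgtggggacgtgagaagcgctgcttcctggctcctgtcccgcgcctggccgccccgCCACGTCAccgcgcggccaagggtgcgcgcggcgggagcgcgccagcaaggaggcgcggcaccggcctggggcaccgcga
Kdelr3, a receptor that returns proteins to the ER, was at 6.32 and 6.25 CPM in Div8pos, at 0.209 and 0.382 CPM in Div8neg and at 0.149 and 0.240 CPM in Div5 (log2 4.96, SE 0.43, adjusted p = 1.28e-09). A match describes letters in the window and is not a measured binding site.

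B cell regulators moved the other way. Of 22 tested, 20 were lower in Div8pos and 2 higher (40.7% and 40.6% of all genes). Their median log2 change was -2.05 (-0.97 with spike-in scaling), against -0.33 in Div8neg, which turned to 0.15 with spike-in scaling. Their median share was 10.8%, against 24.0% for all genes that fell. Pax5, the factor that maintains B cell identity, was at 9.60 and 9.34 CPM in Div8pos, at 242 and 232 CPM in Div8neg and at 363 and 324 CPM in Div5. Its log2 change was -5.18 (SE 0.08, adjusted p = 5.32e-22), of which 10.4% was present in Div8neg. Spib, an ETS factor of B cells, was at 6.80 and 5.90 CPM in Div8pos, at 640.1 and 590.1 CPM in Div8neg and at 920.2 and 894 CPM in Div5 (log2 -7.15, share 7.84%). Bach2, a repressor of Prdm1, was at 0.240 and 0.440 CPM in Div8pos, at 22.8 and 26.1 CPM in Div8neg and at 59.7 and 60.0 CPM in Div5 (log2 -7.44, SE 0.19, adjusted p = 1.99e-18, share 17.4%). In each of them the 2 Div8pos libraries were far below all others, and the Div8neg libraries lay between them and Div5. Bcl6, the repressor of germinal centre B cells, changed by -4.23 with a share of 5.00%, and Id3, an inhibitor of E proteins, by -3.40 with 11.1%. With spike-in scaling their small Div8neg changes turned positive (0.27 and 0.10).

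Not all B cell factors had so little of the change in Div8neg. Foxp1 was at 130.0 and 129 CPM in Div8pos, at 149.7 and 167 CPM in Div8neg and at 309 and 331 CPM in Div5, a share of 77.9% (log2 -1.30). Foxo1 was lower in both branches, and more so in Div8neg (-0.68 and -0.93, a share of 137% at under 2-fold), though its Div8pos change was 0.40 with spike-in scaling. Klf2, a factor of quiescence and migration, and Spi1, which encodes PU.1, fell in Div8pos and rose in Div8neg (-0.84 and 0.47 for Klf2, -1.18 and 0.15 for Spi1), with Klf2 at 0.26 in Div8pos by spike-in scaling. The Spi1 decrease in Div8pos was little larger in size than the median log2 change of all genes with spike-in scaling (1.05). The 2 that rose were Tcf3 (0.34) and Myb (0.73).

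Of 33 B cell surface and receptor genes, 31 were lower in Div8pos and 1 higher (40.7% and 40.6% of all genes). Their median log2 change was -2.57 (-1.51 with spike-in scaling), against -0.43 in Div8neg, which was 0.06 with spike-in scaling. Cd22, an inhibitory lectin, changed by -6.31 with a share of 10.7%, and Fcer2a, the low-affinity IgE receptor CD23, by -7.16 with 27.8%. Fcgr2b, the inhibitory IgG receptor, and Vpreb3 went opposite ways, with -1.79 and 0.17 for Fcgr2b and -1.24 and 0.45 for Vpreb3. The Vpreb3 decrease in Div8pos was little larger in size than the median log2 change of all genes with spike-in scaling (1.05). Cd24a was the gene that rose (0.93, 53.3% of it in Div8neg). All 16 genes of MHC class II display were lower in Div8pos (median -1.86, or -0.77 with spike-in scaling), against a median of -0.54 in Div8neg (-0.05 with spike-in scaling). Ciita, the master regulator of MHC class II, was at 25.8 and 21.9 CPM in Div8pos, at 452 and 434 CPM in Div8neg and at 813 and 753 CPM in Div5 (log2 -5.04, SE 0.06, adjusted p = 4.40e-23, share 16.3%). March1, a ubiquitin ligase for MHC class II, and H2-Oa, which tempers peptide loading, changed by -6.97 and -6.85. The 2 costimulatory ligands differed: Cd86 changed by -5.12 in Div8pos with no change that passed the test in Div8neg (0.05, adjusted p = 0.627), while Cd80 was lower in Div8pos (-0.45, or 0.63 with spike-in scaling) and higher in Div8neg (0.82).

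Of the 19 class switching genes tested 16 were higher and 3 lower in Div8pos (40.6% and 40.7% of all genes). Ung, Exo1 and Lig4, DNA repair enzymes with a part in class switching, rose in Div8pos (1.28, 1.49 and 2.45), with 73.1%, 53.2% and 34.9% of the change in Div8neg.

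DNA replication genes were higher in both branches. Of 41 DNA replication genes, 37 were higher and 2 lower in Div8pos (40.6% and 40.7% of all genes). Their median log2 change was 1.08, against 0.62 in Div8neg. The 24 with a 2-fold change had a median share of 53.2% (35.1% to 65.8%), against 32.9% for all genes that rose. Rrm2, a subunit of ribonucleotide reductase, was at 846 and 794 CPM in Div8pos, at 385 and 378 CPM in Div8neg and at 206 and 226 CPM in Div5 (log2 1.93, SE 0.07, adjusted p = 2.95e-16, share 42.6%). Ccne2, a cyclin of the start of replication, and Orc1, of the origin complex, rose by 2.29 and 2.08 with shares of 47.1% and 51.0%. Of 40 mitosis genes, 34 were higher and 2 lower in Div8pos, with a median of 0.59, against 0.30 in Div8neg. By 2-fold 6 of the 40 were higher, a share near that of all genes tested (16.4%). Mki67, the proliferation antigen, was at 2567 and 2391 CPM in Div8pos, at 1466 and 1529 CPM in Div8neg and at 1194 and 1213 CPM in Div5 (log2 1.04, SE 0.05, adjusted p = 2.89e-14, share 30.2%). Every Div8neg library lay between the others for Rrm2 and Mki67. Among D cyclins and inhibitors, Ccnd2 rose by 1.68 with a share of 10.5%, Cdkn1a by 1.67 with 77.6%, and Cdkn2d changed by -1.77 with 1.16%. Ccnd3 was lower in Div8pos (-0.44, or 0.66 with spike-in scaling) and higher in Div8neg (0.42).

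Growth and metabolism followed the same direction in both branches. Of 35 MYC and ribosome biogenesis genes, 31 were higher and 2 lower in Div8pos (40.6% and 40.7% of all genes). Their median was 0.92, against 0.42 in Div8neg, with a median share of 50.8% over the 12 at 2-fold. Myc itself was at 200.1 and 198 CPM in Div8pos, at 175 and 171 CPM in Div8neg and at 163 and 166 CPM in Div5, a change of 0.27 (SE 0.07, adjusted p = 0.00142). Gnl3, a nucleolar GTPase, rose by 1.95 with a share of 28.3%, and Mxd4, a partner of MAX that opposes MYC, changed by -2.05 with 74.8%. Of 50 respiratory chain genes, 48 were higher and 0 lower by edgeR's test, again 0 with spike-in scaling, with medians of 0.66 in Div8pos and 0.33 in Div8neg. Of 27 genes of amino acid supply and tRNA charging, 25 were higher and 2 lower (median 1.68, against 0.60). Asns, asparagine synthetase, was at 104 and 132 CPM in Div8pos, at 24.1 and 29.6 CPM in Div8neg and at 7.15 and 8.82 CPM in Div5 (log2 3.88, SE 0.08, adjusted p = 1.46e-19, share 45.1%). Hk2, a hexokinase, rose by 3.06 with a share of 38.5% and Slc16a1, a lactate transporter, by 2.46 with 45.3%, while Aldoc, an aldolase, changed by -4.22 with 31.3%. In glycolysis as a whole 13 of 21 genes were higher and 5 lower.

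**Figure D5:**
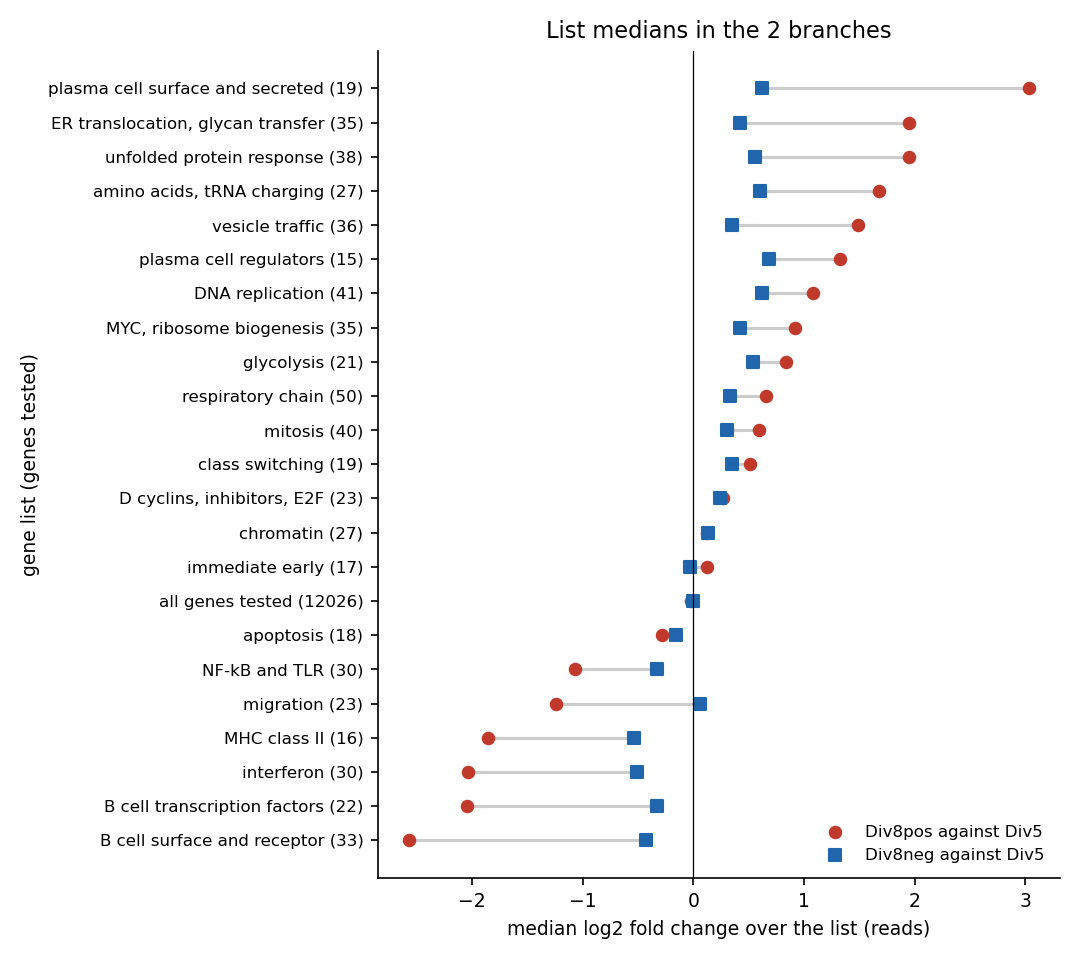
Median log2 fold change of each gene list in Div8pos against Div5 (circle) and in Div8neg against Div5 (square), of TMM-scaled reads, with the number of genes tested in brackets. Secretory lists have wide gaps between the branches and proliferation lists narrow ones; with spike-in scaling the Div8neg medians of both B cell lists, of the NF-kB and TLR list, the immediate early list and the apoptosis list turn positive, as do the Div8pos medians of the NF-kB and TLR and the apoptosis lists.

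Of 30 NF-kB and Toll-like receptor genes, 22 were lower and 6 higher in Div8pos (40.7% and 40.6% of all genes). Their median of -1.07 became 0.01 with spike-in scaling. Tlr9, the receptor for CpG DNA, was at 1.84 and 1.94 CPM in Div8pos, at 328 and 341 CPM in Div8neg and at 416 and 423 CPM in Div5 (log2 -7.79, SE 0.09, adjusted p = 4.40e-23, share 4.22%). Il10, the regulatory cytokine, was at 20.3 and 21.7 CPM in Div8pos, at 17.0 and 20.6 CPM in Div8neg and at 5.59 and 11.0 CPM in Div5, a rise of 1.37 of which 88.0% was present in Div8neg. Of 30 interferon-stimulated genes, 24 were lower and 5 higher in Div8pos (median -2.04, or -0.97 with spike-in scaling), against -0.51 in Div8neg (-0.02 with spike-in scaling), with a median share of 14.5%. Oas1a, an antiviral oligoadenylate synthetase, was at 0.400 and 0.352 CPM in Div8pos, at 14.0 and 11.7 CPM in Div8neg and at 19.1 and 24.9 CPM in Div5 (log2 -5.82, SE 0.28, adjusted p = 8.89e-14). Ifit3, which binds viral RNA, had 1 count over both Div8pos libraries and was 148 times lower there than in Div5 (95% counting interval 26.2 to 5890). Isg20, a nuclease, and Bst2, tetherin, rose instead (2.17 and 2.08, with 8.37% and 28.1% in Div8neg). Ddx58, the RNA sensor RIG-I, and Irf7 went opposite ways, with 0.22 and -0.81 for Ddx58 and 0.63 and -0.52 for Irf7. The Irf7 decrease in Div8neg was little larger in size than the median log2 change of all genes with spike-in scaling (0.49).

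The motif GAAA, repeated after 2 bases of any kind as in interferon-stimulated response elements, was searched on either strand. It stood in 13 of the 23 interferon genes with a promoter in the table (56.5%) and in 1079 of all 27025 (3.99%). Among tested genes with a promoter it stood in 3.89%. This list too was set by gene role. The windows of the 2 genes just described are shown with it in capitals, on the strand not printed for Ifit3 and as 2 overlapping copies for Oas1a.
Ifit3 (chr19:34583279-34583578, + strand): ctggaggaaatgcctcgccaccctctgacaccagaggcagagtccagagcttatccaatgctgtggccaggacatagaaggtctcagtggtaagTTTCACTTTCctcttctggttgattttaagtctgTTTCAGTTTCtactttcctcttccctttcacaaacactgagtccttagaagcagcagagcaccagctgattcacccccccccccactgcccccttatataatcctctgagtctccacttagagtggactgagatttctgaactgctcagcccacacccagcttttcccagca
Oas1a (chr5:120907476-120907775, - strand): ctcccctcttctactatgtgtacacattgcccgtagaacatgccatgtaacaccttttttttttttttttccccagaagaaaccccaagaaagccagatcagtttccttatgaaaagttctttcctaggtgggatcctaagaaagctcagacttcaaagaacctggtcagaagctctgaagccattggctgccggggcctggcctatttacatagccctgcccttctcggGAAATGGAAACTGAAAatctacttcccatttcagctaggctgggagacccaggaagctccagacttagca
The same limit applies to them.

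Migration receptors and integrins held 7 of the 428 opposite genes among 23 tested (3.56% of all genes were opposite). These 7 calls are of read shares, and only 92 of the 428 were opposite with spike-in scaling too. In Div8pos 17 of the 23 were lower and 5 higher than in Div5 (40.7% and 40.6% of all genes, list median -1.24). With spike-in scaling 10 were lower and 5 higher in Div8pos (median -0.16). In Div8neg, by contrast, 11 were higher and 8 lower (28.7% each of all genes, list median 0.06). Without the Div5 library of host 196 these were 7 and 8, and with spike-in scaling 13 and 3 (median 0.55). Itgam, the integrin alpha-M chain, was at 2.64 and 1.50 CPM in Div8pos, at 104 and 133 CPM in Div8neg and at 51.8 and 80.3 CPM in Div5 (log2 -4.95 and 0.86). Itgb7, the integrin beta-7 chain, changed by -2.46 and 0.52. Cxcr4, the receptor that brings plasma cells to bone marrow, was at 203 and 194 CPM in Div8pos, at 34.1 and 37.8 CPM in Div8neg and at 17.9 and 21.8 CPM in Div5 (log2 3.33, SE 0.09, adjusted p = 5.69e-18, share 25.7%). Ccr10 and Ccr9, receptors of plasma cells that home to mucosa, rose by 5.84 and 4.20. Ccr6, S1pr3 and Ccr7 changed by -7.11, -6.70 and -5.21 with shares of 15.6%, 7.08% and 11.2%. S1pr2, which confines B cells to the follicle, was at 12.5 and 10.1 CPM in Div8pos, at 28.1 and 27.5 CPM in Div8neg and at 5.14 and 4.25 CPM in Div5, so that the branch without CD138 had the larger rise (1.27 and 2.56).

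Survival, immediate early and chromatin lists held genes of both directions, as all genes did (40.6% higher and 40.7% lower). Of 18 survival and apoptosis genes 6 were higher and 9 lower in Div8pos. Bcl2l1, which encodes the survival protein BCL-XL, was at 94.7 and 108 CPM in Div8pos, at 17.9 and 20.4 CPM in Div8neg and at 13.9 and 17.2 CPM in Div5 (log2 2.71, SE 0.08, adjusted p = 7.83e-18, share 11.1%). Bcl2 and the death receptor Fas changed by -2.75 and -2.80 with shares of 26.8% and 19.2%. Among immediate early genes 8 of 17 were higher and 8 lower in Div8pos. Fosb, a subunit of AP-1, and Egr1, a zinc finger factor, rose by 2.47 and 2.17, while Egr3, its relative, and Nr4a1, an orphan nuclear receptor, changed by -4.49 and -3.02. Of 27 chromatin regulators 13 were higher and 10 lower. Dnmt3a, a DNA methyltransferase, changed by -2.60 with a share of 15.6%.

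Marker lists of cells other than B cells differed in summed level between these groups. Whether such cells were present was not tested. Of 12 T cell markers 4 were tested, and all 4 were lower in Div8pos. Their summed level over all 12 was 19.3 to 24.2 CPM in Div8pos, 120.5 to 136 CPM in Div8neg and 212 to 233 CPM in Div5, most of it from Cd2, while Cd3d, Cd3e and Cd3g were at or below 0.264 CPM in every library. Myeloid markers summed to 35.8 to 38.8 CPM in Div8pos, 158 to 199 CPM in Div8neg and 115 to 129 CPM in Div5, most of it from Itgam in Div8neg, and Lyz2, lysozyme, was at 3.12 and 2.47 CPM in Div8pos, at 3.42 and 3.82 CPM in Div8neg and at 4.84 and 5.37 CPM in Div5. Markers of erythroid cells and platelets summed to 4.93 to 7.68 CPM in Div8pos, 29.8 to 37.9 CPM in Div8neg and 15.6 to 40.6 CPM in Div5. Among them Ppbp, a platelet chemokine, was lower in Div8pos (-1.56) and higher in Div8neg (1.58). Pf4 was higher in Div8neg (1.82, adjusted p = 0.0153), at 0.698 and 0.994 CPM against 0.223 and 0.240 CPM in Div5. With 1 library left out the Div8neg change ranged from 0.89 to 2.22 for Ppbp and from 1.27 to 2.43 for Pf4. Of the 9 tested on that list, 3 were higher in Div8neg (28.7% of all genes were). The other 6 did not pass the test, among them Hbb-b1 (0.09) and Hba-a2 (-0.27). Neutrophil markers summed to 70.0 to 70.3 CPM in Div8pos, 54.8 to 55.3 CPM in Div8neg and 29.3 to 50.4 CPM in Div5, mostly Cxcr2, and natural killer, dendritic and stromal or endothelial sums were lowest in Div8pos and highest in Div5. The stromal or endothelial sum was mostly Pecam1, which was lower in Div8neg than in Div5 (-0.58). Vwf and Kdr, of endothelium, were higher in Div8neg than in Div5 (1.35, adjusted p = 0.0056, and 1.36, adjusted p = 0.0397). Kdr was at 0.977 and 1.45 CPM in Div8neg and at 0.372 and 0.561 CPM in Div5. Cdh5, on the same list, did not pass the test in Div8neg (0.08, adjusted p = 0.716). The part of such cells in the opposite changes was not tested.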

How the data were processed

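RNA from sorted B cells was sequenced with a stranded mRNA kit, per the labels' protocols. The authors deposited raw read counts per gene over exons of UCSC mm9 KnownGenes and raw counts per ERCC spike-in, and, made from these, RPM, FPKM and mRNA molecules per cell (another unit, scaled to the spike-ins), per the deposited readme. Picard and R 3.2.2 are named in the submitters' processing notes. Aligner and counter were not given in the sources used here, and deposited RPM and FPKM values were not tested. All counts of the 12 libraries (11551585 to 14975133 per library) were fitted with edgeR 4.0.16 in R 4.3.3 (quasi-likelihood test, TMM, group and host as terms, Benjamini-Hochberg adjustment), after filtering low counts by group, which left 12026 of 21761 genes; 90 entries without a symbol were not used. Members, gene lists and rules were chosen with earlier results of these data known.

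The host number was a block because a number names 1 animal. Deviations of libraries with the same number correlated with r between 0.02 and 0.299 over 15 pairs of groups. A share is the log2 change of Div8neg divided by that of Div8pos, for genes called with at least 2-fold change. Opposite genes passed the test in both contrasts with opposite signs. Genes were named as 15 anchors, the 6 clearest in each opposite pattern at 10 CPM or more, the 5 with the largest change per share class and direction, and, from each list, up to 3 members per direction plus called members named for their role; not all are described, and some are not reported here. Alternatives were no block, DESeq2 size factors, DESeq2 1.42.0, spike-in scaling, no filter, 6 libraries, and each library left out. Promoter sequences are from RefSeq (GRCm38.p6), whereas counting used mm9, so that no coordinate of one was used with the other. Intervals and floors cover counting error only.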

Additional observations from a re-analysis of the deposited data

Results flagged for a closer look

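The named genes with opposite changes are listed with the difference between the branches, Div8pos minus Div8neg on the log2 scale. Being chosen for opposite changes against the same Div5 libraries, they had to differ, so that the values are a description with no test. The difference was 3.81 for Amigo2 (SE 0.13), 2.86 for Plekhg3, 2.73 for Trp53inp1, 2.72 for Pik3cg, 1.99 for Arhgap6 and 1.96 for Rnf122. In the other pattern it was -5.42 for S100a6 (SE 0.28), -5.20 for Ahnak, -4.13 for Dkk3, -3.01 for Mettl7a1 and -2.77 for Gas7. For Itga8 the fitted value was -10.28, which depends on the prior count since both Div8pos libraries held 0 counts. Groups of 2 libraries are too small for a search for outlying samples.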

How the results depend on the processing

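Results are limited by 2 hosts, by bulk RNA and by a relative scale. Spike-in scaling had the widest effect; the cause of changes with other settings was not tested. With it, 7910 genes were higher and 1663 lower in Div8pos than in Div5 (6205 and 1239 by 2-fold), 5354 higher and 402 lower in Div8neg than in Div5, and 1805 lower in Div8pos than in Div8neg. Opposite genes then numbered 168 (18 and 150), the median share was 38.7% (41.2% for genes that rose, 7.83% for genes that fell), and 5432 genes had a share of 25 to 75%. On that scale the Div8pos change turned positive for Bhlhe41 (0.28), Ccnd3 (0.66), Cd80 (0.63), Foxo1 (0.40), Klf2 (0.26), Lyz2 (0.23), Ppp1r15a (0.80) and Stt3b (0.77). The Div8neg change turned positive for Aff3 (0.04), Bcl6 (0.27), Dnmt3a (0.08), Id3 (0.10), Itga4 (0.10), Ms4a4c (0.03), Ppp1r15a (0.21), S1pr3 (0.01), Stt3b (0.33) and Tlr9 (0.16).

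The DESeq2 test gave 250 opposite genes, 135 of them lower in Div8pos, and an adjusted p under 0.01 gave 236 (82 and 154). Median shares for genes that rose and fell were 32.0% and 24.8% with DESeq2 or its size factors. With a log2 change of at least 2 the medians were 22.8% for all, 29.5% for genes that rose and 20.0% for genes that fell. Taking the Div8neg change from host 196 and the Div8pos change from host 197 gave 28.4%, 32.5% and 25.4%, and the reverse gave 26.7%, 30.1% and 23.7%. With the difference in mean CPM they were 29.7%, 18.8% and 41.3%, and without genes of 3 counts or fewer in a group 28.0% for all and 24.9% for genes that fell. Gene counts over spike-in counts gave a total of 2.22 for Div8pos over Div5. Leaving out 1 library at a time gave 233 to 467 opposite genes (81 to 195 higher and 146 to 272 lower in Div8pos) and median shares of 26.4% to 29.3% for all, 31.5% to 34.1% for genes that rose and 23.1% to 25.1% for genes that fell. Without the Div8pos library of host 196 the opposite genes numbered 467. Without the replicate block 347 genes were opposite, all among the 428, 9597 differed between Div8pos and Div5, and 11 calls on named genes were lost.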
